A study of Mus musculus with 8 samples.

Results

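The enzymes described here were the glutathione peroxidases, the glutathione S-transferases, the cytosolic sulfotransferases and the UDP-glucuronosyltransferases of the mouse ventral prostate. They were chosen by gene symbol alone, as every row whose name began with Gsta, Gstk, Gstm, Gsto, Gstp, Gstt, Mgst, Gpx, Sult or Ugt followed by a digit, and 73 of the 36333 genes in the table met this rule. RNA was sequenced in bulk from ventral prostates of 4 hSKP2-KI and 4 wild-type (WT) FVB/N mice, 1 library per mouse, all at 12 months of age. In hSKP2-KI mice the human SKP2 coding sequence, joined to a self-cleaving peptide, was knocked into the first exon of the X-linked mouse probasin gene (Pbsn), whose promoter is active in the prostate epithelium. WT mice carried no insertion and the labels give no treatment for either group. The knock-in line that gave the sequenced mice is not given in the sources used here.

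Glutathione is the main small thiol of the cell. Glutathione peroxidases use it to reduce hydrogen peroxide and lipid peroxides, and several of them carry selenocysteine in the active site. Glutathione S-transferases join it to electrophiles, either in the cytosol (alpha, mu, pi, theta and omega classes), in mitochondria and peroxisomes (kappa) or in membranes (the microsomal Mgst enzymes). Sulfotransferases and UDP-glucuronosyltransferases attach sulfate or glucuronic acid to hormones and foreign compounds, and some members of each family act on steroids, among them estrogens and the androgens that maintain the prostate.

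Expression values were in TPM, a measure of transcript abundance that is normalised for transcript length and adds up to the same total in every sample. Skp2 was at 37.3 to 60.6 TPM in the 4 hSKP2-KI prostates and at 1.05 to 2.27 TPM in the 4 WT prostates, while Pbsn was at 93.0 to 174 against 3979.8 to 9232 TPM, so that the libraries went with their labels; human SKP2 has no row of its own in the table. The secretory genes Sbp, Spink1 and Sbpl together held 32.1% to 34.3% of all TPM in hSKP2-KI prostates and 40.4% to 45.8% in WT prostates. The total is fixed, and the 13080 tested genes had a median log2 fold change of 0.23 with TPM as deposited and of -0.01 after median-ratio scaling of the samples. Fold changes below are log2 differences of scaled TPM + 1, hSKP2-KI minus WT, which understate the change of low genes, with SE and Benjamini-Hochberg adjusted p from limma over all tested genes and a threshold of 0.05. A value before an adjusted p in brackets is such a fold change. The values given per mouse are TPM as deposited unless named as scaled, and they are listed in the order of mice 1 to 4 of each genotype. The labels name the libraries as biological replicates. TPM does not give the read depth of a value, and in bulk tissue fewer cells of a type and less RNA per cell cannot be told apart.

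The 4 enzymes with the largest rises among the called genes with a promoter entry belong to 4 different classes, and all were higher by this choice. Their promoters are shown here. Each is the 250 bases before the transcription start, written 5′ to 3′ on the strand of the gene, from RefSeq on GRCm38.p6, and for Sult5a1 and Gsta3 the start used lies inside the outer bounds of the gene. Capitals mark a match to 1 of 3 motifs searched on both strands, which were TGACNNNGC (the core of the antioxidant response element), GCGTG (the core of the xenobiotic response element) and AGAACA (a short androgen receptor motif). Ugt2b34 (chr5:86906938-86907187, minus strand) held the androgen receptor motif on the opposite strand, starting 209 bases before the start of transcription.
Ugt2b34: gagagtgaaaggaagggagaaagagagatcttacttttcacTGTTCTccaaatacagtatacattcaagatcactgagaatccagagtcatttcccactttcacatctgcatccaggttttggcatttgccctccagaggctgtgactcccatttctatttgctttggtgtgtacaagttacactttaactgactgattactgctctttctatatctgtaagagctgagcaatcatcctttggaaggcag
Mgst1 (chr6:138140277-138140526, plus strand, the first of its start sites) held the antioxidant core on the opposite strand, starting 56 bases before the start. Its other start site, not shown, lacked this core and held the androgen receptor motif.
Mgst1: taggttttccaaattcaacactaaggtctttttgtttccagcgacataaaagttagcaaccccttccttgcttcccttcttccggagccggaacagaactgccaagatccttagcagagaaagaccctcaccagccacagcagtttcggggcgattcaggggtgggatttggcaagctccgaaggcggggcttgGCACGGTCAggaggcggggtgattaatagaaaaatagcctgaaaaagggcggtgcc
Sult5a1 (chr8:123158281-123158530, minus strand) held none of the 3 motifs in this window.
Sult5a1: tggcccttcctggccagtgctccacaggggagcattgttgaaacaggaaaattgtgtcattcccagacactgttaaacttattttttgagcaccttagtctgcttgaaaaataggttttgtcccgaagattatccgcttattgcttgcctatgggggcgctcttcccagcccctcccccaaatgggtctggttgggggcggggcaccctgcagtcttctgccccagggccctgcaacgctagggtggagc
Gsta3 (chr1:21240335-21240584, plus strand) held the antioxidant core 121 bases before the start.
Gsta3: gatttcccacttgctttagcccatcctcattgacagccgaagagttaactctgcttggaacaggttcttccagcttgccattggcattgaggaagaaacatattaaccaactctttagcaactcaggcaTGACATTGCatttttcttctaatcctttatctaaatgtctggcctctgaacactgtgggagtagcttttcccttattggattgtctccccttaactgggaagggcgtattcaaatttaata

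A promoter was found for 65 of the 73 genes, and for 9 of the 10 called below, with 11 start sites among them. The antioxidant core was present in 3 of these 11 promoters (27.3%) and in 10.2% of all 32851 mouse promoters over the same 250 bases, and the 3 belonged to Gsta3, Mgst1 and Gstm7, of which Gstm7 was lower. Over the promoters of all tested enzymes it was in 9.76%. Mgst1 and Gstm7 each also had a start site without it. The androgen receptor motif was in 4 of the 11 (36.4%) against 16.1% of all promoters and 26.8% of those of the tested enzymes. The 4 belonged to Ugt2b34, Ugt1a6a, Sult1a1 and the other start site of Mgst1. The xenobiotic core was in none of the 11, against 28.2% of all and 22.0% of those of the tested enzymes. These are counts of short letter patterns and no test was made of them.

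In the comparison of hSKP2-KI with WT prostates, 33 of the 73 genes reached 1 TPM in 4 or more of the 8 samples and were tested. Of the other 40, 20 were listed at 0 in every sample, 17 stayed below 1 TPM in every sample and 3 (Gsta2, Sult2b1 and Sult4a1) reached 1 TPM in fewer samples. Of the 33 tested, 9 were higher in hSKP2-KI prostates and 1 was lower, or 30.3%. Of all tested genes 11.2% were called (6.92% higher and 4.25% lower). The 73 genes were chosen with earlier results of these data known, so their share is not that of an unselected set. Those higher were Mgst1, Ugt2b34, Sult5a1, Gsta3, Gsta4, Gpx7, Sult1e1, Sult1a1 and Ugt1a6a, and the 1 lower was Gstm7. The median log2 fold change of the 33 was 0.23, beside -0.01 for all tested genes. With TPM as deposited, 16 of the 33 were higher and 0 lower by the same limma test, with 1 lower at an unadjusted p under 0.05 (background 33.9%, 32.7% higher and 1.23% lower), and of all genes called 96.4% were higher, against 61.9% after scaling. With quantile scaling 9 were higher and 2 lower (background 10.1%, 5.41% higher and 4.65% lower), and without the 20 most abundant genes 8 were higher and 2 lower (background 10.2%, 6.82% higher and 3.35% lower). Of the 9 genes higher, 8 were called in the same direction with median-ratio scaling, quantile scaling, TPM as deposited and TPM rescaled without the 20 most abundant genes. The exception was Sult1e1. Where a gene is said to be called only with TPM as deposited, this refers to these 4 scalings.

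A filter that needs 4 samples can be met by the hSKP2-KI mice alone. Among the tested genes, 26 had a TPM of at least 1 in all 4 WT samples, and 9 of these 26 were called, where 11.1% of the 11974 genes of that kind were called. Of the 7 that had it in fewer WT samples, 1 was called, Ugt2b34. The scaled values of the genotypes did not overlap for 9 genes that were higher in hSKP2-KI and for 2 that were lower, Gstm7 and Gstk1, while 10.3% and 8.91% of all tested genes were separated in these directions, or 19.2% in all (35.1% with TPM as deposited).

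**Figure D1:**
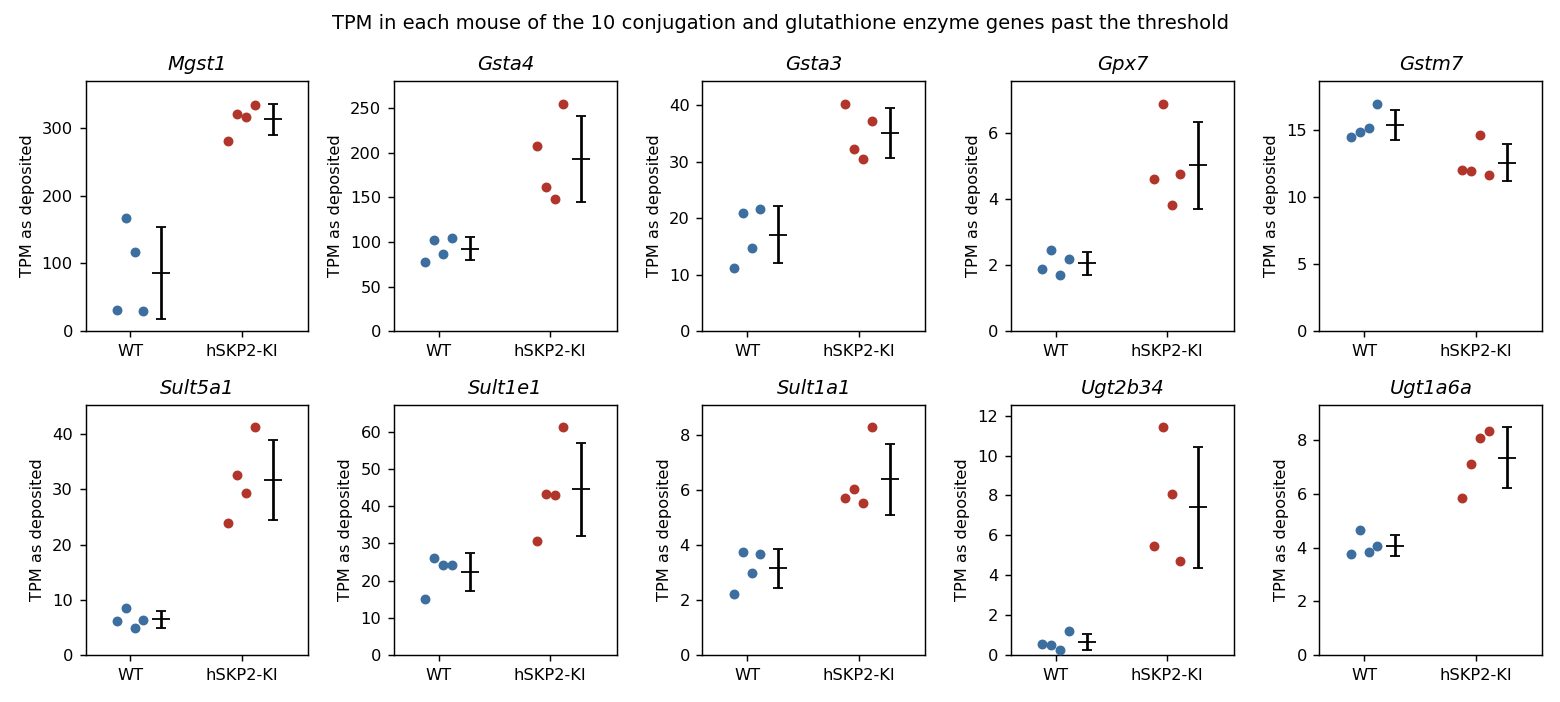
TPM as deposited (y axis, starting at 0) of the 10 called genes in each of the 4 WT (blue) and 4 hSKP2-KI (red) ventral prostates, with the mean and SD of each group beside the points. The 4 hSKP2-KI points lie above the 4 WT points for 9 genes, and Gstm7 is the only 1 of the 10 whose deposited values overlap.

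The microsomal transferase Mgst1, a membrane enzyme that both conjugates glutathione and reduces lipid peroxides, showed one of the widest differences. It lies at chr6:138140527-138156755 on GRCm38.p6 (Entrez 56615). Its TPM was 280.2, 321, 316 and 333 in the hSKP2-KI mice and 30.8, 167, 116 and 29.9 in the WT mice. The hSKP2-KI values were close to each other, while WT mice 2 and 3 stood well above WT mice 1 and 4, and every WT value was below every hSKP2-KI value (log2 fold change 1.97 ± 0.48 (SE), adjusted p = 0.0282). This call was lost when any 1 of 6 of the 8 mice was left out, with a largest adjusted p of 0.0699, while the log2 fold change stayed between 1.59 and 2.38. Mgst3, its relative in the same membranes, was at 172, 159, 135 and 129 TPM in hSKP2-KI and 102, 112, 109 and 113 TPM in WT mice. All 4 hSKP2-KI values of Mgst3 were above the WT values as deposited, but its difference passed the threshold only with TPM as deposited (0.43, adjusted p = 0.00892; scaled 0.17, adjusted p = 0.329). The ratio of Mgst1 to Mgst3 within a library does not change when the library is multiplied by a factor, and it was 1.63, 2.01, 2.34 and 2.58 in hSKP2-KI against 0.302, 1.49, 1.06 and 0.264 in WT mice. Mgst2 was below 1 TPM in every sample.

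Both tested alpha-class transferases were called higher in hSKP2-KI prostates, beside 6.92% of all tested genes. Gsta4, known for conjugating 4-hydroxynonenal, a product of lipid peroxidation, was the most abundant alpha-class gene, at 207, 161, 148 and 255 TPM in hSKP2-KI and 77.1, 102, 86.6 and 105 TPM in WT mice (log2 fold change 0.76 ± 0.15 (SE), adjusted p = 0.0155). Gsta3, which in mice is known for conjugating aflatoxin epoxide, was at 40.2, 32.2, 30.5 and 37.2 against 11.1, 20.9, 14.8 and 21.5 TPM (log2 fold change 0.77 ± 0.16 (SE), adjusted p = 0.0162). For neither gene did the genotypes overlap. The ratio of Gsta4 to Gsta3 was 5.47 ± 0.934 (SD, n = 4) in hSKP2-KI and 5.64 ± 0.982 in WT prostates, with overlapping values, although the genes lie apart, Gsta4 at chr9:78191966-78209349 and Gsta3 at chr1:21240565-21265575. Gsta2, which lies beyond Gsta1 from Gsta4 on chromosome 9, missed the filter at 0.703, 0.768, 1.12 and 2.71 TPM in hSKP2-KI and 0, 0.358, 0.0847 and 0.340 TPM in WT mice. These low values did not overlap (exact two-sided permutation test on the scaled values of the 8 mice, unadjusted p = 0.0286, the smallest that 4 against 4 allows). Gsta1 did not exceed 0.104 TPM in any sample.

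The mu class held the only gene that fell. Gstm7 (chr3:107926334-107931877, Entrez 68312) was at scaled values of 11.3, 10.8, 13.4 and 10.4 TPM in hSKP2-KI and 17.5, 15.1, 16.9 and 18.0 TPM in WT mice (log2 fold change -0.52 ± 0.09 (SE), adjusted p = 0.00942). The scaled values did not overlap, but those as deposited did, and with TPM as deposited the difference stopped just short of the threshold (-0.27, adjusted p = 0.0513). It was called again with each mouse left out. Its neighbours in the cluster of 7 Gstm genes on chromosome 3 did not pass the test. Gstm2, the most abundant of them, had means of 335 ± 12.1 TPM (SD, n = 4) in hSKP2-KI and 295 ± 18.3 TPM in WT prostates (-0.08, adjusted p = 0.534), and the sign of its fold change turned with TPM as deposited (0.19). Gstm1 was at 386, 332, 275 and 422 against 226, 235, 216 and 266 TPM and was called only with TPM as deposited (0.57, adjusted p = 0.0084; scaled 0.30, adjusted p = 0.155). Gstm1 thus stood above Gstm2 in 3 of the 4 hSKP2-KI prostates and below it in all 4 WT prostates. In the reference transcripts 12.3% of the 75-base stretches of Gstm1 and 2.77% of those of Gstm2 occur in another gene, though not in each other. The ratio of Gstm1 to Gstm2 overlapped, with hSKP2-KI mouse 3 at 0.817 and the WT mice at 0.761 to 0.867. Gstm4, Gstm5 and Gstm6 had scaled log2 fold changes of -0.06, -0.23 and -0.17, and Gstm3 was detected in 1 sample, at 0.0757 TPM.

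No transferase of the pi, theta, omega or kappa class was called by limma after median-ratio scaling, and 2 were lower at an unadjusted p under 0.05. Gstp1, the pi-class enzyme whose human counterpart is silenced in most prostate cancers, had a mean of 261 ± 20.8 TPM in hSKP2-KI and 219 ± 15.5 TPM in WT prostates. Its scaled log2 fold change was -0.02, adjusted p = 0.928, and it was called higher only with TPM as deposited (0.25, adjusted p = 0.0386). Its near-identical neighbour Gstp2 was listed at 0.474 to 1.68 TPM in hSKP2-KI and 0.344 to 1.33 TPM in WT mice. In the reference transcripts 44.5% of the 75-base stretches of Gstp1 and 45.8% of those of Gstp2 occur in another gene, so the division of reads between them is uncertain.

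In the theta class Gstt3 was the most abundant, with 185 to 235 TPM in hSKP2-KI and 195 to 232 TPM in WT mice. It missed the threshold after median-ratio scaling (-0.31, adjusted p = 0.0638) and was called lower with quantile scaling (-0.29, adjusted p = 0.0329) and without the 20 most abundant genes (-0.29, adjusted p = 0.0389), and 19.1% of its 75-base stretches occur in another gene. Gstt1 (-0.18, adjusted p = 0.512) and Gstt2 (-0.09, adjusted p = 0.715) were not called. Gsto1 was at 50.7, 42.1, 44.3 and 62.0 TPM in hSKP2-KI and 42.5, 39.6, 114 and 37.3 TPM in WT mice, and the single high value of WT mouse 3 decided the sign of its fold change, which was -0.34 with that mouse and 0.0472 without it. Gsto2 was near 1 to 2 TPM in most samples (0.13, adjusted p = 0.675). The mitochondrial and peroxisomal Gstk1 was at scaled values of 137, 138, 137 and 143 TPM in hSKP2-KI and 186, 208, 149 and 146 TPM in WT mice, which did not overlap but did not pass the test (-0.29, adjusted p = 0.119). On the deposited scale its values did overlap.

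Among the 6 tested glutathione peroxidases 1 rose, the endoplasmic reticulum enzyme Gpx7 (16.7% called, near the 11.2% of all tested genes). It was at 4.63, 6.90, 3.83 and 4.77 TPM in hSKP2-KI and 1.88, 2.47, 1.70 and 2.20 TPM in WT mice, with no overlap (log2 fold change 0.76 ± 0.14 (SE), adjusted p = 0.0125). Gpx8, the other peroxidase of the endoplasmic reticulum, was at 36.4, 33.6, 37.0 and 40.8 against 12.7, 26.5, 13.8 and 47.9 TPM. WT mouse 4 held the highest Gpx8 value of all 8 mice, and the difference did not pass the test (0.47, adjusted p = 0.372).

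The abundant selenium-dependent peroxidases were not called after median-ratio scaling. Gpx3, the secreted plasma form and the most abundant of the 73 genes with a mean of 1485 TPM, was at 1012, 1140.5, 1385 and 1751 TPM in hSKP2-KI and 1951, 1487, 2039 and 1110.5 TPM in WT mice (-0.58, adjusted p = 0.149). The values overlapped widely, and WT mice 2 and 4 lay among the hSKP2-KI mice. Gpx1, the cytosolic and mitochondrial form, was at 594, 666, 506 and 464 against 434, 375, 356 and 395 TPM. The deposited values of Gpx1 did not overlap, and it was called only with TPM as deposited (0.50, adjusted p = 0.00979; scaled 0.23, adjusted p = 0.313). Gpx4, which reduces lipid peroxides in membranes, did not pass the test on the scaled values (0.03, adjusted p = 0.918), and 46.2% of its 75-base stretches occur in a pseudogene. Gpx2 was near 1 TPM (0.31, adjusted p = 0.47), and the epididymal Gpx5 and olfactory Gpx6 were listed at 0 in all samples.

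**Figure D2:**
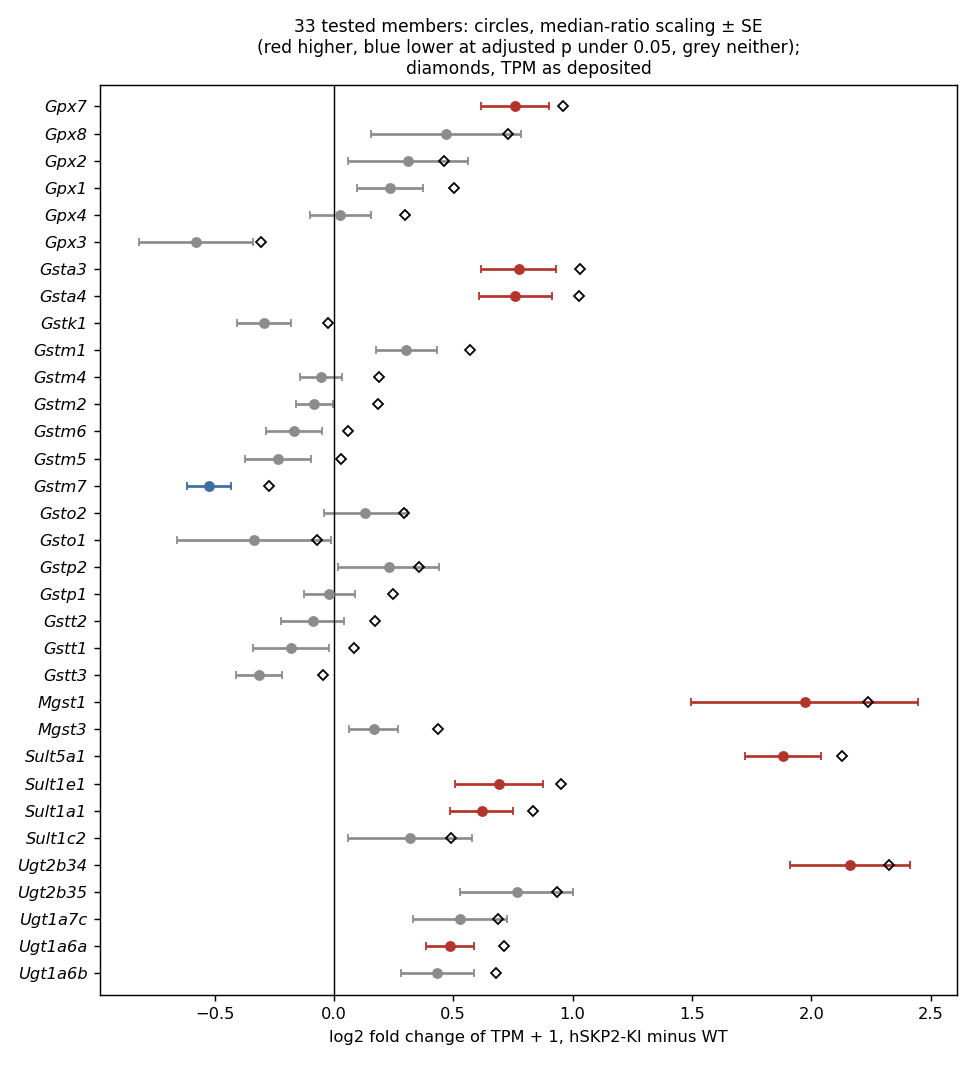
Log2 fold change ± SE (x axis, hSKP2-KI minus WT, scaled TPM + 1) of the 33 tested genes, arranged by class, with red for higher, blue for lower and grey for genes that were not called, and open diamonds for the fold change with TPM as deposited. On the scaled values the alpha-class, sulfotransferase and UDP-glucuronosyltransferase genes all lie right of 0, while 5 of the 6 mu-class genes and all 3 theta-class genes lie left of it, some of which move to the right with TPM as deposited.

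Of the 21 sulfotransferase genes 10 were listed at 0 in all samples and 4 were tested. Of these 3 rose, or 75%, beside 6.92% of all tested genes. Sult5a1 (chr8:123142843-123158914, Entrez 57429), a member with little known of its substrates, had the smallest p of the 33 tested genes. It was at 23.9, 32.6, 29.3 and 41.2 TPM in hSKP2-KI and 6.22, 8.52, 4.83 and 6.30 TPM in WT mice (log2 fold change 1.88 ± 0.16 (SE), adjusted p = 0.000231). The lowest hSKP2-KI value was more than the highest WT value by a wide gap, the ratio of scaled means was 4.08, and the call held with each mouse left out. Sult1e1, which sulfates and so inactivates estrogens, was the most abundant sulfotransferase, at 30.7, 43.4, 42.9 and 61.2 TPM in hSKP2-KI and 14.9, 26.2, 24.2 and 24.2 TPM in WT mice (log2 fold change 0.69 ± 0.18 (SE), adjusted p = 0.0404). WT mouse 1 was the lowest and hSKP2-KI mouse 4 the highest. The call of Sult1e1 was lost when any 1 of 7 of the 8 mice was left out (largest adjusted p = 0.09) and without the 20 most abundant genes (adjusted p = 0.0576).

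Sult1a1, which sulfates phenols, was at 5.70, 6.03, 5.50 and 8.26 TPM in hSKP2-KI and 2.20, 3.73, 2.96 and 3.67 TPM in WT mice, with no overlap (log2 fold change 0.62 ± 0.13 (SE), adjusted p = 0.0192). Sult1c2 was at 1.66 to 5.12 against 0.864 to 3.04 TPM and did not pass the test (0.32, adjusted p = 0.474). Below the filter, Sult1b1 was at 0.599, 0.654, 0.749 and 0.840 TPM in hSKP2-KI and 0.239, 0.257, 0.213 and 0.275 TPM in WT mice, named here after its values were seen. Sult2b1, a cholesterol sulfotransferase, was at 0.329 to 1.48 against 0.551 to 0.697 TPM (exact permutation test, unadjusted p = 0.543). Sult4a1, a form found mainly in brain, was at 2.48, 0.465, 0.292 and 0.0887 TPM in hSKP2-KI and 0, 0.145, 0 and 0 TPM in WT mice (exact permutation test, unadjusted p = 0.0571). The hSKP2-KI spread of Sult4a1 came mostly from mouse 1.

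Among the 21 UDP-glucuronosyltransferase genes, 8 were listed at 0 in all samples and 5 were tested. Of these 2 rose, or 40%, beside 6.92% of all tested genes. The 2 include Ugt2b34, which passed the filter through its level in the hSKP2-KI mice. Ugt2b34 (chr5:86889770-86906937, Entrez 100727) had the largest log2 fold change of the 33 tested genes. Its TPM was 5.44, 11.4, 8.05 and 4.70 in hSKP2-KI and 0.554, 0.507, 0.254 and 1.22 in WT mice (log2 fold change 2.16 ± 0.25 (SE), adjusted p = 0.00173). Only 1 WT mouse reached 1 TPM, so the gene was tested because of its level in the hSKP2-KI mice, and the call held with each mouse left out. Ugt2b35, its close neighbour, was at 2.23, 3.45, 3.32 and 4.71 against 0.830, 2.33, 0.563 and 1.80 TPM and was called only with TPM as deposited (0.93, adjusted p = 0.0178; scaled 0.77, adjusted p = 0.0666). Enzymes of the Ugt2b family are known to glucuronidate androgens and other steroids.

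The Ugt1a genes share their last exons and differ in the first, at chr1:88211959-88220002 for the shortest of them, Ugt1a1, and chr1:88055411-88220002 for the longest, Ugt1a10. Ugt1a6a, which acts on small phenols, was at 5.86, 7.14, 8.09 and 8.34 TPM in hSKP2-KI and 3.76, 4.66, 3.85 and 4.05 TPM in WT mice (log2 fold change 0.48 ± 0.10 (SE), adjusted p = 0.0172). Ugt1a6b, at 10.0, 16.3, 11.8 and 16.7 against 8.21, 9.48, 6.48 and 8.09 TPM (0.43, adjusted p = 0.0928), and Ugt1a7c, at 1.33 to 3.70 against 0.641 to 1.30 TPM (0.53, adjusted p = 0.115), were called only with TPM as deposited. Of their 75-base stretches 95.7%, 74.8% and 53.3%, respectively, occur in another gene, so how the reads were divided among them is uncertain. The sum over all Ugt1a genes with a row avoids the division among these genes. It was 17.4, 27.6, 22.0 and 27.4 TPM in hSKP2-KI against 12.8, 15.4, 11.8 and 13.7 TPM in WT mice. Ugt1a8, which shares stretches with Ugt1a6b and Ugt1a7c, had no row by that symbol. The sums did not overlap on either scale. Of the other 9 enzymes called, none had more than 5% of its stretches in another gene.

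Sult1e1, Sult1d1 and Sult1b1 lie next to the Ugt2 genes on chromosome 5, and the order along the chromosome is Ugt2b34, Ugt2b1, Ugt2b35, Ugt2b36, Ugt2b5, Ugt2b37, Ugt2a3, Ugt2b38, Ugt2a1, Ugt2a2, Sult1b1, Sult1d1 and Sult1e1. The genes with values of at least 1 TPM in any sample were at or near its ends, namely Ugt2b34, Ugt2b35 and Sult1e1. Those between Ugt2b35 and Sult1b1 were listed at 0 in all 8 samples. Sult1d1 did not exceed 0.149 TPM and Ugt2b1 did not exceed 0.0765 TPM. The genotypes overlapped for Sult1d1 but not for Sult1b1 and Sult1e1, which lie on either side of it.

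**Figure D3:**
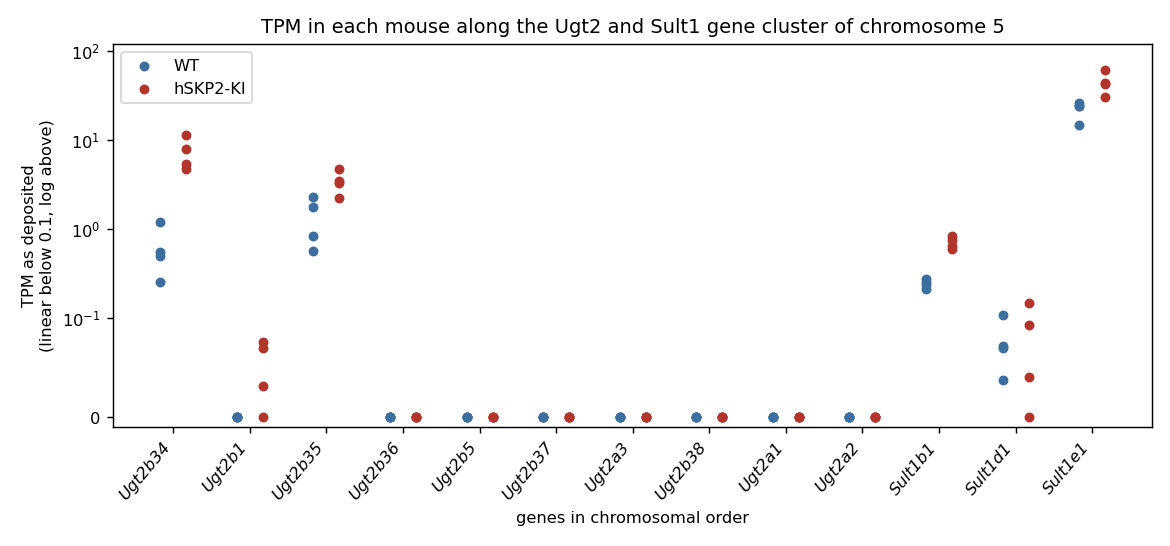
TPM as deposited (y axis, linear below 0.1 and logarithmic above) of the 13 genes of the Ugt2 and Sult1 cluster on chromosome 5, in chromosomal order, with 1 point per WT (blue) or hSKP2-KI (red) prostate. Only Ugt2b34, Ugt2b35 and Sult1e1 reach 1 TPM, and the middle of the cluster is at 0 in all 8 samples.

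The make-up of the enzyme set differed between the genotypes. The summed TPM of the 73 genes was taken per library and divided among the 10 classes, which gives shares that do not change when a library is multiplied by a factor. Glutathione peroxidases held 48.2 ± 2.83% (SD, n = 4) of the sum in hSKP2-KI and 57.1 ± 5.47% in WT prostates, and all 4 hSKP2-KI values were below all WT values. This difference was that of Gpx3, which was not called and alone held 29.0 ± 5.52% against 40.9 ± 7.56%, with overlap. The other peroxidases together held 19.2 ± 3.14% in hSKP2-KI and 16.1 ± 2.75% in WT prostates, also with overlap. The microsomal Mgst class held 10.2% against 4.92%, the alpha class 5.03% against 2.81%, the sulfotransferases 1.94% against 0.893% and the UDP-glucuronosyltransferases 0.771% against 0.397%, each without overlap. The summed TPM of these 4 classes did not overlap either, as deposited or with median-ratio scaling. Most of the Mgst difference was that of Mgst1, with mean deposited TPM of 313 in hSKP2-KI and 86.0 in WT prostates. For Mgst3 these means were 149 and 109. The shares are built from the levels of single genes given above and are not a separate result. The mu, pi, theta, omega and kappa shares overlapped. The shares sum to a fixed total, so the classes are not independent, and no p-value is given because the genes were chosen with results known. When each mouse was left out in turn, the difference in the peroxidase share stayed between -10.6 and -7.03 percentage points, and that in the Mgst share between 4.72 and 6.01.

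**Figure D4:**
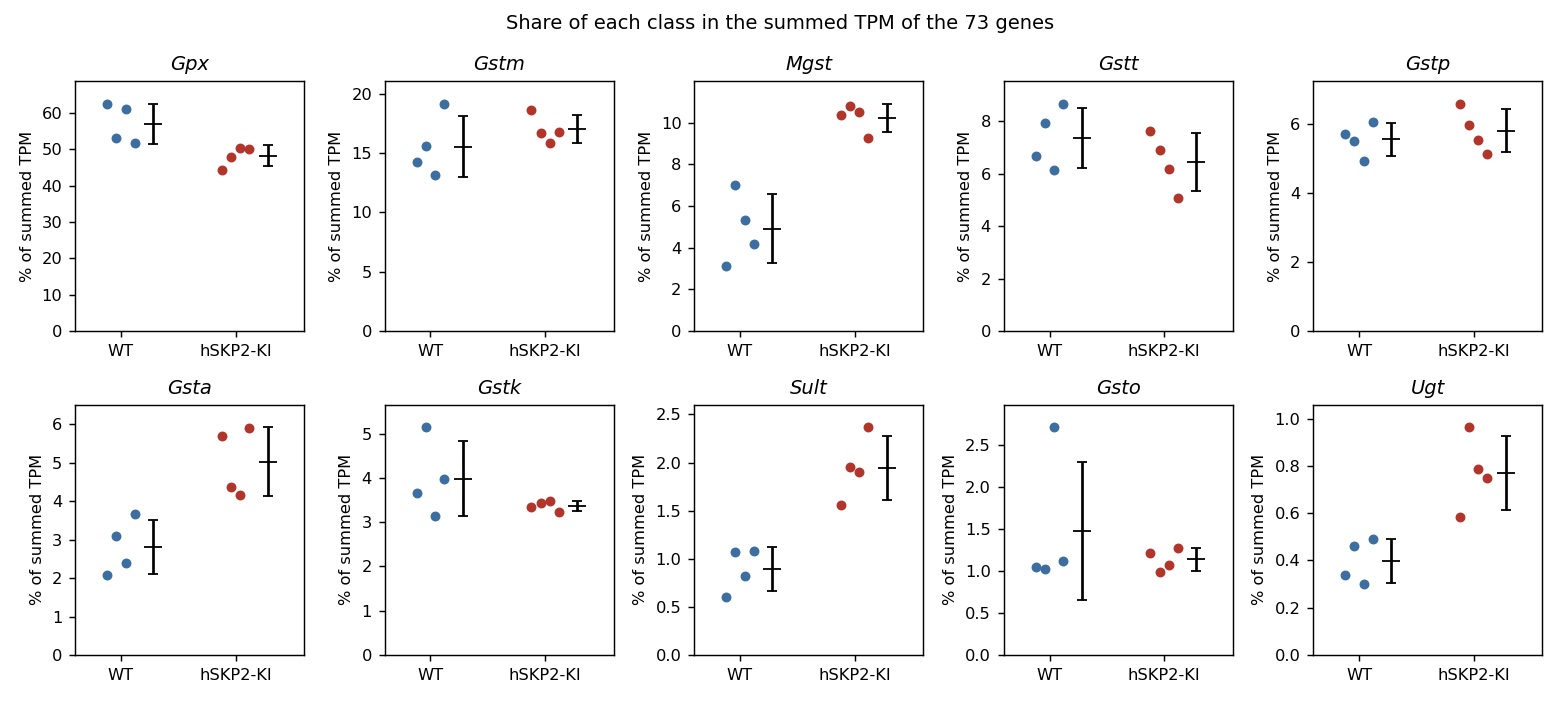
Share of each class in the summed TPM of the 73 genes (y axis, %, starting at 0) in each WT (blue) and hSKP2-KI (red) prostate, with the mean and SD beside the points. The Gpx share is lower and the Mgst, Gsta, Sult and Ugt shares are higher in all 4 hSKP2-KI prostates than in any WT prostate, while the other classes overlap.

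The genes that supply or use these enzymes were taken from 8 lists covering glutathione synthesis, NADPH, thioredoxin, selenoprotein synthesis, regulators and targets of NRF2 and other sensors, sulfate and glucuronate donors, conjugate export and related proteins. Of the 132 genes listed 129 had a row and 118 were tested. In hSKP2-KI prostates 15 were higher and 7 lower, or 18.6% of those tested beside 11.2% of all tested genes, with a median log2 fold change of 0.01. With TPM as deposited 49 were higher and 3 lower, where 32.7% of all tested genes were higher and 1.23% lower. Of the 22 called, 14 were called in the same direction under all 4 scalings. The others were Nnt, Prdx3, Cyp1b1, Bpnt1, Arsa, Kyat1, Ltc4s and Clic6.

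In glutathione synthesis and turnover, 2 of 26 genes rose and 2 fell, or 15.4% called, near the 11.2% of all tested genes. Cth, which makes cysteine from cystathionine, was at 2.51, 2.95, 3.68 and 2.05 TPM in hSKP2-KI and 9.44, 9.92, 10.7 and 10.3 TPM in WT mice (log2 fold change -1.78 ± 0.13 (SE), adjusted p = 9.13e-05), and every hSKP2-KI value was less than every WT value. Slc7a11, which imports cystine, was at 1.18, 1.89, 1.85 and 3.37 against 0.344, 0.399, 0.539 and 0.298 TPM (log2 fold change 0.97 ± 0.18 (SE), adjusted p = 0.0129), and it was tested only because all hSKP2-KI mice reached 1 TPM. These 2 genes stand on alternative routes to cysteine, and a change of route was not tested. Cbs (-0.09, adjusted p = 0.729) and Slc3a2 (-0.06, adjusted p = 0.606), of the same list, did not pass the test. Of the glutaredoxins, Glrx was higher, at 52.7 to 65.2 against 16.1 to 36.7 TPM (0.95, adjusted p = 0.0357), and the mitochondrial Glrx2 lower, at 10.2 to 10.4 against 12.9 to 16.0 TPM (-0.73, adjusted p = 0.00336). The rate-limiting synthesis enzyme did not pass the test in either of its subunits, with log2 fold changes of -0.25 for Gclc and 0.09 for Gclm, and neither did glutathione synthetase Gss (0.01) or glutathione reductase Gsr (-0.17). Ggt1, which breaks down extracellular glutathione, was the most abundant gene of the list (-0.23, adjusted p = 0.0766).

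NADPH, which glutathione reductase needs, is made by several enzymes. Of 10 tested, 2 rose and 1 fell (30% called, beside 11.2% of all tested genes). Idh1 (0.44, adjusted p = 0.0216) and Me1 (0.56, adjusted p = 0.0228), both cytosolic, were higher, and the mitochondrial transhydrogenase Nnt (-0.28, adjusted p = 0.0461) was lower. G6pdx, which opens the pentose phosphate route, did not pass the test (-0.11, adjusted p = 0.418), and the most abundant gene was Taldo1 (-0.18, adjusted p = 0.403). Of the 7 tested genes of selenoprotein synthesis 0 were called by limma and 0 had an unadjusted p under 0.05, while 1 was higher with TPM as deposited. The most abundant was Scly (-0.09, adjusted p = 0.523).

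Of 19 tested sensors and targets, 3 rose and 0 fell, or 15.8% called, near the 11.2% of all tested genes. Akr1b8, an aldo-keto reductase, was at 40.8, 43.5, 39.4 and 40.6 TPM in hSKP2-KI and 10.8, 23.3, 11.0 and 13.0 TPM in WT mice (log2 fold change 1.25 ± 0.17 (SE), adjusted p = 0.00369). Blvrb (0.49, adjusted p = 0.0169) and Cyp1b1 (0.55, adjusted p = 0.041), a cytochrome P450 that oxidises estrogens and polycyclic compounds, were also higher. Other well-known NRF2 targets, Nqo1 (0.48, adjusted p = 0.282) and Hmox1 (0.69, adjusted p = 0.107), and Nfe2l2 itself (0.19, adjusted p = 0.262) did not pass the test. The most abundant gene was Akr1a1 (-0.10, adjusted p = 0.459).

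Among donors and deconjugation, 2 of 13 rose and 2 fell (30.8% called, beside 11.2% of all tested genes). Ugdh, which makes the UDP-glucuronic acid used by the Ugt enzymes, was at 11.8, 14.1, 13.5 and 18.2 TPM in hSKP2-KI and 7.47, 8.80, 7.94 and 8.55 TPM in WT mice (log2 fold change 0.49 ± 0.10 (SE), adjusted p = 0.019). Papss2, which makes the sulfate donor and was the most abundant gene of the list, did not pass the test (0.04, adjusted p = 0.918). Bpnt1, which clears the by-product of sulfation, was lower (-0.44, adjusted p = 0.0314), and the arylsulfatases moved apart, Arsa higher (0.38, adjusted p = 0.0477) and Arsb lower (-0.65, adjusted p = 0.00659). Of 11 genes of conjugate export and mercapturate formation 27.3% were called, beside 11.2% of all tested genes. The pumps Abcc5 (0.59, adjusted p = 0.015) and Abcc3 (0.32, adjusted p = 0.0222) were higher, and the cysteine conjugate lyase Kyat1 was lower (-0.33, adjusted p = 0.0183).

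**Figure D5:**
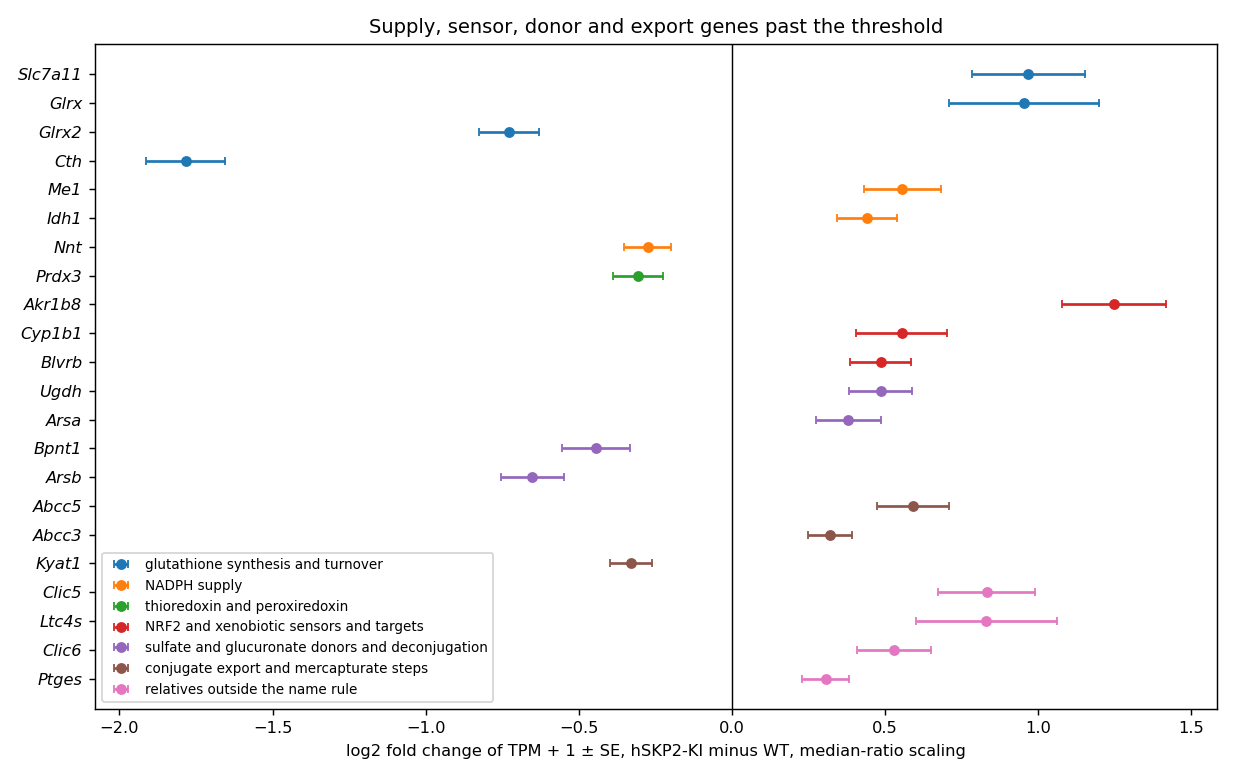
Log2 fold change ± SE (x axis, hSKP2-KI minus WT, scaled TPM + 1) of the 22 called genes of the 8 lists, coloured by list. Cth lies farthest to the left and Akr1b8 farthest to the right, and each of the lists for glutathione turnover, NADPH, donors and export has genes on both sides of 0.

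Markers of several cell types also differed between the genotypes, and their part in the results above was not tested. Summed TPM of 12 ventral prostate luminal markers was 254538 to 291446 in hSKP2-KI and 336869 to 383647 in WT prostates. Of these 12, 2 were called lower, and at an unadjusted limma p under 0.05 4 were lower and 1 higher. The list holds Pbsn, the gene with the insertion, and Sbp and Spink1, which with Sbpl made up the secretory share given above. The median log2 fold change of the 12 was -0.10. With TPM as deposited 4 were higher and 3 lower by limma. Of the proximal luminal and urothelial markers, 6 of 8 tested were called higher (summed TPM 1089 to 1434 against 516 to 779). So were 3 of 10 fibroblast markers (1121 to 1936 against 653 to 862). Also called higher were 4 of 8 smooth muscle markers (3089 to 4722 against 2083 to 2626). For endothelial markers it was 2 of 7 (45.7 to 75.2 against 27.3 to 39.5). In the same order 7, 8, 8 and 4 markers were higher at an unadjusted limma p under 0.05. The shares called over all tested genes were 6.92% higher and 4.25% lower. All sums here are TPM as deposited, a scale on which the middle tested gene had a log2 shift of 0.23. The calls used scaled values. No macrophage marker of 7 was called by limma (282 to 762 against 116 to 256), though 5 were higher at an unadjusted p under 0.05, and 0 of the tested markers were called for basal (294 to 426 against 196 to 306), adipocyte (172 to 672 against 102 to 499) and skeletal muscle cells (256 to 437 against 161 to 311), with 1, 0 and 1 at an unadjusted p under 0.05. Seminal vesicle markers did not exceed a sum of 0.656 TPM, with Svs2, Svs3a and Pate4 at 0, and epididymal markers did not exceed 3.74 TPM, with Lcn5, Lcn8 and Spag11a at 0. Liver, where many of these enzymes are most abundant, gave marker sums of 8.48 to 127 against 6.90 to 78.1 TPM, with Fgb at 0 in all samples.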

How the data were processed

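RNA from the ventral prostate of 4 hSKP2-KI and 4 WT mice was sequenced with poly(A) selection and paired-end reads, which the authors trimmed and mapped in CLC software. The authors deposited TPM values, that is reads per transcript length scaled to the same total in each library, for 8 samples. The submitters' processing notes name the builds mm10 and GRCm38, and the software version, annotation and counting options are not given in the sources used here. The table held 0 columns of other samples and no identical samples. Of the genes encoded in mitochondria, ATP6, COX1, CYTB, ND1 and ND4 stood at 0 throughout. Depth is unknown from TPM, so no count model and no interval from counts was used.

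Samples were grouped by their labels. A gene was kept if it reached 1 TPM in 4 or more of the 8 samples, which 13080 did. TPM was scaled by median-ratio factors over these genes, because a few secretory genes take a different part of the fixed total in each genotype, and log2(scaled TPM + 1) was compared with limma (3.58.1, under R 4.3.3), using a variance trend on the mean and Benjamini-Hochberg adjustment over all kept genes at 0.05. The procedure was tested on simulated data. Alternatives were TPM as deposited, quantile scaling, TPM without the 20 most abundant genes, a pseudocount of 0.1, no filter, a mean TPM of at least 5, a replicate block and leaving out each sample.

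The genes, the 8 pathway lists and the 12 marker lists were chosen with earlier results of these data known. The genes named were those called, the 2 most abundant of each class, those called only under another scaling, those below the filter that reached 1 TPM and, in each list, the called genes (at most 6) and the most abundant one, of which 1 is not reported here. Other genes were named after their values were seen. Selenop, Bpnt2 and Mars1 matched no row by symbol and were not analysed here. Promoters and positions came from RefSeq on GRCm38.p6, and stretches of 75 bases shared between transcripts were counted in the GENCODE transcripts of the same build.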

Additional observations from a re-analysis of the deposited data

Results flagged for a closer look

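In 3 of the 56 groups of 4 values examined, which were the named genes in each genotype, 1 mouse stood far from the other 3 of its group (Dixon's test at 95%). The test used log2(scaled TPM + 1), while the values below are TPM as deposited unless named as scaled. Chance flags about 1 in 20 such groups. For Sult1e1, WT mouse 1 was low at 14.9 TPM while the other WT mice were between 24.2 and 26.2 TPM. For Gstk1, hSKP2-KI mouse 4 was high at a scaled 143 TPM, with the others between a scaled 137 and 138 TPM, a narrow range. As deposited it was at 161 TPM, with the others more widely spread between 146 and 153 TPM. For Sult4a1, WT mouse 2 was at 0.145 TPM while the other WT mice were listed at 0. With the other 3 values equal, any different value is flagged, so this flag carries no information.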

How the results depend on the processing

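The number of the 33 tested genes called was 10, with 9 higher and 1 lower. With TPM as deposited it was 16, with 16 higher and 0 lower, and 2 were lower with quantile scaling, without the 20 most abundant genes and with a replicate block. Leaving out each mouse in turn gave 8 to 11 called, 7 to 9 higher and 1 to 2 lower. Of the pathway genes 22 were called, against 52 with TPM as deposited, 13 with no filter on low values and 12 to 18 with each mouse left out. The fewest, 12, came without WT mouse 1.

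Directions that turned were those of Gstm2 with TPM as deposited (0.19), Gstt1 with TPM as deposited (0.0836), Gsto2 with quantile scaling (-0.00112) and Gstp1, which was 0.25 as deposited (adjusted p = 0.0386), 0.0112 with quantile scaling and 0.00111 without the 20 most abundant genes, and ran from -0.0816 to 0.0727 with each mouse left out. Gsto1 ran from -0.51 to 0.0472, the latter without WT mouse 3. Over the named genes, 147 of their values under the alternatives other than leaving out a mouse kept direction and side of the threshold, 10 gained the call, 5 lost it and 6 turned. With no filter the adjusted p was 0.0759 for Mgst1, 0.0942 for Sult1e1 and 0.0539 for Sult1a1. Gpx7, Gsta3, Gsta4, Gstm7, Sult1a1, Sult5a1, Ugt1a6a and Ugt2b34 kept their calls with each mouse left out. The cause of these changes was not tested.

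The replicate numbers are not stated to pair the mice, and the correlations of same-numbered samples after removing the genotype means were 0.23, -0.11, 0.17 and -0.01 across genes. With a replicate block 12 genes were called, the added ones being Gstt3 (adjusted p = 0.0491) and Ugt2b35 (adjusted p = 0.041). Keeping genes with a mean of 5 TPM or more left no value for genes below it, among them Gpx7, Sult1a1 and Ugt2b34. Genes near 1 TPM are limited by a depth that TPM does not give.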

Other observations

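The thioredoxin and peroxiredoxin genes, most of which work through thioredoxin and not glutathione, and relatives of the glutathione transferases that lie outside the naming rule were measured beside the enzymes above. Of 19 thioredoxin, peroxiredoxin, superoxide dismutase and related genes, 0 were higher and 1 lower by limma with median-ratio scaling. This was 5.26% called, beside 11.2% of all tested genes, with 3 higher and 3 lower at an unadjusted p under 0.05. With TPM as deposited 12 were higher, where 32.7% of all tested genes were. The 1 lower was the mitochondrial Prdx3 (log2 fold change -0.31, adjusted p = 0.0403). Prdx6, which uses glutathione and was the most abundant gene of that list, was at 2501, 1710.3, 2733 and 3215 TPM in hSKP2-KI and 1166, 1944, 1076 and 1345 TPM in WT mice (0.61, adjusted p = 0.086).

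Of 13 tested relatives 4 were higher (30.8%, beside 6.92% of all tested genes). Clic5 and Clic6, of the chloride intracellular channel family that shares the transferase fold, were higher (0.83, adjusted p = 0.0128 and 0.53, adjusted p = 0.0227). Ltc4s, which joins glutathione to leukotriene A4, was at 13.9, 26.4, 16.7 and 9.67 TPM in hSKP2-KI and 6.01, 7.72, 6.38 and 7.71 TPM in WT mice (0.83, adjusted p = 0.0468), and Ptges, a prostaglandin E synthase of the same membrane protein family, was also higher (0.31, adjusted p = 0.0317). Eef1g, an elongation factor subunit with a transferase-like domain and the most abundant gene of the list, did not pass the test (-0.22, adjusted p = 0.3).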
